A study of Mus musculus with 8 samples.

Results

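Chromatin accessibility at 8 genes that control red cell formation was followed in formalin-fixed, paraffin-embedded (FFPE) mouse spleen, in 7 transcription factor or cofactor genes (Gata1, Klf1, Tal1, Nfe2, Gfi1b, Zfpm1 and Lmo2) and in the erythropoietin receptor gene Epor. They were chosen by name, 8 of the 21827 annotated protein-coding genes, with the peaks at their promoters and within 50 kb in 4 bulk ATAC libraries and with the fragments of 2 single-cell ATAC sets. The spleens came from C57BL/6J mice of both sexes at 8 weeks of age, with no allele or treatment that set groups apart. Tn5 transposase, which cuts and tags accessible DNA, was applied to the nuclei, and the tagged DNA was purified without (−RV) or with (+RV) reverse crosslinking, the heating step that undoes formaldehyde bonds. There were 2 bulk libraries per condition. The 2 single-cell libraries of each condition were pooled in a single fragment set, so a condition counts there as 1 sample and intervals cover counting error only. The study describes the bulk replicates as technical and divided the tagged nuclei between the conditions, so the spread between libraries, and every SE and p below, measures technical noise and not animals. The comparison asks whether reverse crosslinking changed what was recovered at these genes.

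Erythroid progenitors turn into haemoglobin-filled cells under a small group of DNA-binding factors. Gata1 binds GATA motifs, Tal1 binds E-boxes together with the bridging protein Lmo2, Klf1 binds CACCC boxes, and Nfe2 forms a heterodimer with small Maf proteins at its own motif. Zfpm1 (FOG-1) is a cofactor that docks on Gata1, and Gfi1b is a repressor that recruits histone-modifying enzymes. Epor receives the hormone Epo and signals through the kinase Jak2 to Stat5. In the mouse, unlike in adult humans, the red pulp of the spleen keeps making red cells, beside the B and T cells that fill most of the organ. Several of these factors also act in megakaryocytes, mast cells or stem cells.

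Sequences of 6 regions are shown because the results below turn on them. The Tal1 and Gfi1b regions are distal, and the Nfe2 region spans the annotated 5′ end of its gene. These were called in every bulk library. The Epor region lies in the first part of the gene. The Klf1 promoter had a peak in the +RV lists alone, and the Zfpm1 promoter is the strongest promoter of the group. Each is 200 bp of mm10 centred on the mean summit and read 5′ to 3′ on the strand of the gene. Capitals mark 4 motifs on either strand, where matches can overlap. They are GATAA for GATA factors, CAGNTG as an E-box, CCNCNCCC as a loose CACCC-box pattern and TGANTCA for the Nfe2 and AP-1 core. CCNCNCCC also matches GC-rich strings without CACCC, such as CCCCGCCC, and CACCC in other surroundings stays in lower case.
Tal1 +39.5 kb, chr4:115095863-115096062, plus strand: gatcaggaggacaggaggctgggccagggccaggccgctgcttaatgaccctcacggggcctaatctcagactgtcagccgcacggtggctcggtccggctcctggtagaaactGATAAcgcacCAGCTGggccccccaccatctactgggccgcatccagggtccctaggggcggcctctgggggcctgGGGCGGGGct
Gfi1b +19.6 kb, chr2:28602246-28602445, minus strand: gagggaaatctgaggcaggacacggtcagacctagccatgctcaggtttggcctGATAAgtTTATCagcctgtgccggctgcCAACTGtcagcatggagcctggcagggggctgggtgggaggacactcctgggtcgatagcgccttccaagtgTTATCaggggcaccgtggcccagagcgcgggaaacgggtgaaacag
Nfe2 −3.09 kb, chr15:103258427-103258626, minus strand: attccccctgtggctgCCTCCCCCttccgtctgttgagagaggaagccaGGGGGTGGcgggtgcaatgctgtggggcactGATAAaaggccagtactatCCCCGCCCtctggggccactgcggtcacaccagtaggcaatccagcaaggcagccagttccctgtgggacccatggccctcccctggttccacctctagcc
Epor +0.871 kb, chr9:21962535-21962734, minus strand: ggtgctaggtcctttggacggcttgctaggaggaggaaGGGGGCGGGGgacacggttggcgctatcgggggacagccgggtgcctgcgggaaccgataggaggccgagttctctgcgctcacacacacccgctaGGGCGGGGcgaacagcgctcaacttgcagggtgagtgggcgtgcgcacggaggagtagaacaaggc
Klf1 promoter, chr8:84901830-84902029, plus strand: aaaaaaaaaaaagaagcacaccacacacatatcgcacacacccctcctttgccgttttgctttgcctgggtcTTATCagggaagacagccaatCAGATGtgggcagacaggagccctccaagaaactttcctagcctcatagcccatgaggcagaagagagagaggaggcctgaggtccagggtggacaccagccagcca
Zfpm1 promoter, chr8:122281838-122282037, plus strand: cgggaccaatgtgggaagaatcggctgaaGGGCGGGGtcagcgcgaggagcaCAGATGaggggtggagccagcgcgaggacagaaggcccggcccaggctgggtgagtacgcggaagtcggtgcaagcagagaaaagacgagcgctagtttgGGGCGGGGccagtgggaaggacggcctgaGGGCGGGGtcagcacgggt
The Gfi1b region held 3 GATAA matches and the Tal1, Nfe2 and Klf1 regions held 1 each. The Epor and Zfpm1 windows held none, and each had 3 CCNCNCCC matches. TGANTCA was in none of these 6 windows.

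The bulk lists held 32288 and 32736 peaks in −RV and 47755 and 47864 in +RV, 1.47 times as many in +RV. Their sequencing depth is unknown. The −RV single-cell set held 1592372 nuclear fragments in 2406 barcodes and the +RV set 13703580 in 18620 barcodes. With mitochondrial fragments included, the medians were 633 and 667 fragments per barcode, and 2 barcodes occurred in both sets. Marker promoters of spleen cell types were read first. A peak in both libraries was found at 14 of 16 B cell and 12 of 16 T cell promoters in −RV and at 16 and 13 in +RV. Of 25 erythroid effector genes, such as the globins, Alas2 and Slc4a1, 12 promoters were called in −RV and 19 in +RV. Hbb-bs, Hbb-bt and Slc4a1 had a promoter peak in all 4 libraries and Alas2 in +RV alone, while Hba-a1 and Hba-a2 had none. Megakaryocyte promoters were called at 1 and 2 of 13, and mast cell and basophil promoters at 0 and 1 of 9. Stem and progenitor promoters were called at 4 and 5 of 9, and macrophage and monocyte promoters at 4 and 7 of 16. In bulk tissue, fewer cells of a type and less accessibility per cell cannot be told apart.

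At the promoters themselves, 5 of the 8 genes had a peak in both −RV libraries (Tal1, Nfe2, Gfi1b, Zfpm1 and Lmo2) and 7 in both +RV libraries, with Klf1 and Epor added. A promoter reached 1000 bp before and 200 bp after each start site. Over all genes 47.7% of promoters were called in −RV and 53.6% in +RV. Klf1 was the 1 gene of the group called in both +RV libraries and in neither −RV library, against 3.48% of all genes. With the same number of peaks taken from each library, 5 of the 8 were called in each condition, beside 47.7% and 50.9% of all genes. In +RV these were Tal1, Gfi1b, Zfpm1, Lmo2 and Epor, without Klf1 and Nfe2. With 8 genes these counts do not set the group apart from the background.

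The peak at Zfpm1, the Gata1 cofactor, was the strongest promoter peak of the group. Its fold enrichment over the caller's local background was 5.75 and 6.18 in the −RV libraries and 6.07 and 5.41 in the +RV libraries, and it ranked within the top 5.63% to 11.3% of peaks of each list by q. The conditions overlapped. The Klf1 promoter peak had folds of 2.92 and 2.63 in +RV, with −log10 q of 6.31 and 4.68. It was lost when a −log10 q of 5 or more, or the same number of peaks per library, was required. The Epor promoter was called at 4.21 in −RV replicate 1, not in −RV replicate 2, and at 5.34 and 4.08 in +RV. Gata1, which encodes the master erythroid factor, had no promoter peak listed for any of the 4 libraries. Whether the lists held here contain every peak that was called is not known, which bears on each absent peak.

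Within 50 kb of a start site the 8 genes together had 43 and 43 peaks in the −RV libraries and 56 and 56 in the +RV libraries. The ratio of the means was 1.3, and the libraries of a condition did not overlap with those of the other. An exact permutation test, two-sided, returned p = 0.333, which is the smallest value possible with 2 libraries a side. With the same number of peaks taken from each library the ratio was 1.01. Lmo2 had the most peaks, 8 and 8 in −RV and 8 and 10 in +RV, a mean over libraries that 90.5% of genes did not reach. Gata1 had the fewest, 1, 1, 1 and 2, with 30.7% of genes below it.

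Merged over the libraries, these peaks made 66 regions. Of them 13 lay at promoters of the 8 genes, 14 at promoters of other genes and 39 in introns, exons or between genes. All 4 libraries shared 33 of the 66 (50%), against 39.2% of all 60232 regions. Both +RV libraries and neither −RV library had 8 (12.1%, against 12.5% overall), and none was found in both −RV libraries alone. Sharing followed position. All 4 libraries held 13 of the 14 promoters of neighbouring genes, 8 of the 13 own promoter regions and 12 of the 39 other regions.

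**Figure D1:**
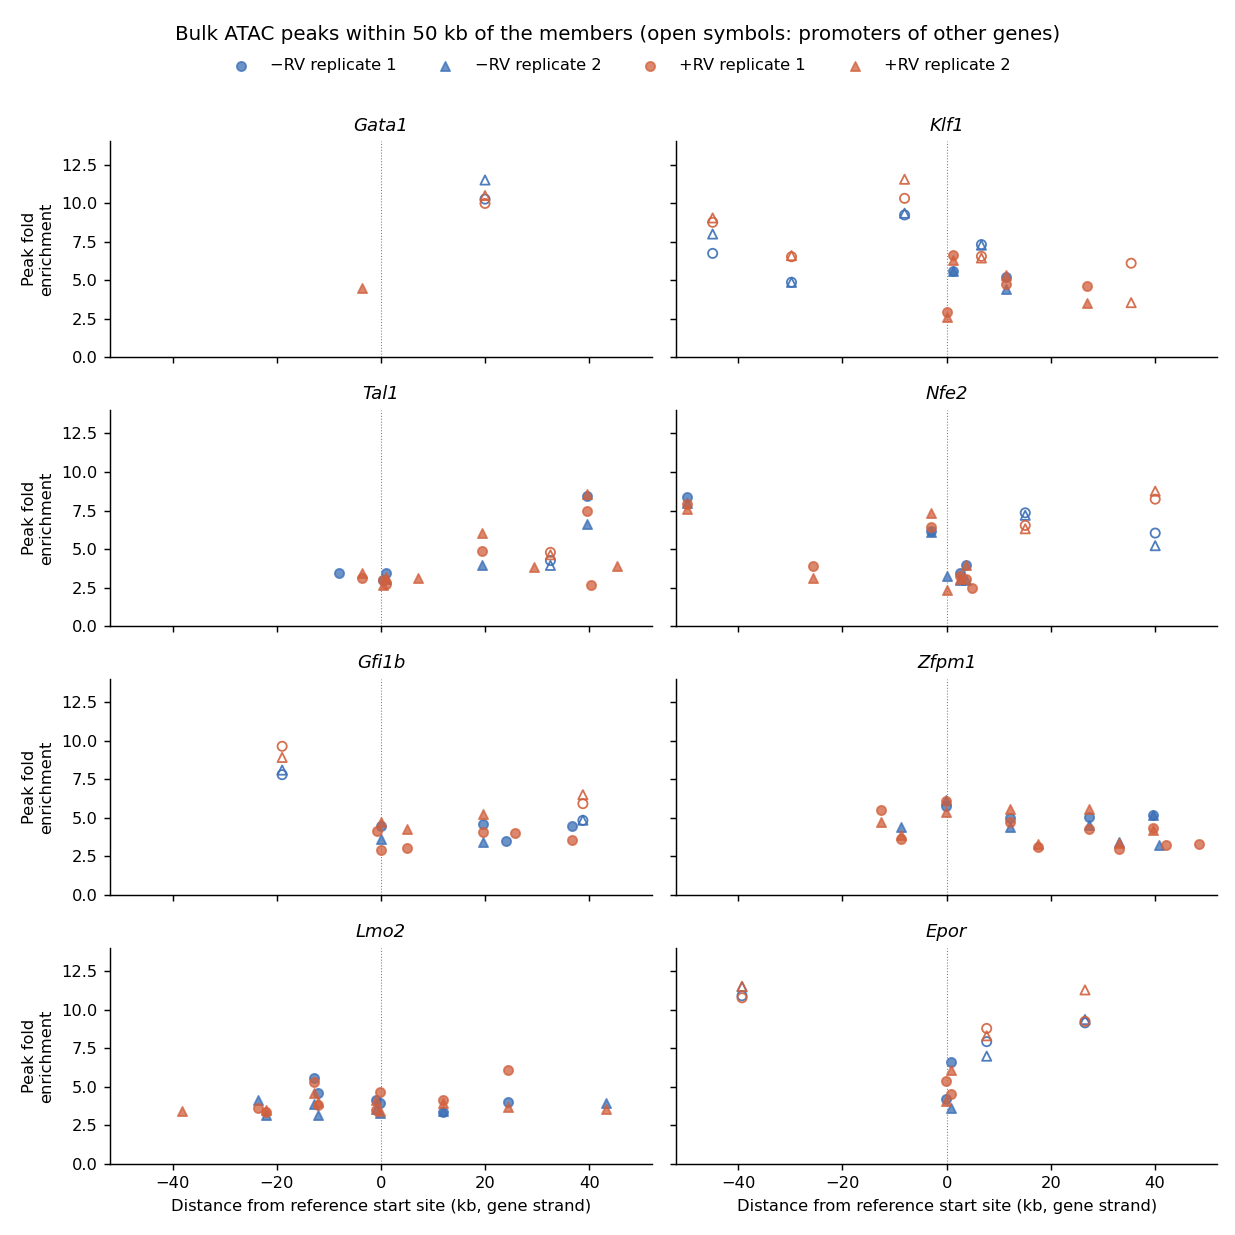
Fold enrichment of every peak region within 50 kb of the 8 genes, 1 panel per gene, against the distance of its summit from the reference start site in kb along the gene's strand. Colours give the condition, shapes the replicate, and open symbols mark promoters of other genes. The Tal1 region at +39.5 kb reached 6.65 to 8.60 in all 4 libraries, and Gata1 had a single own region in 1 library.

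The strongest distal region of Tal1, the E-box factor at the top of the programme, lay 39.5 kb downstream of its start, past the neighbouring gene Pdzk1ip1. Its fold was 8.44 and 6.65 in −RV and 7.44 and 8.60 in +RV, above the 2.68 to 3.47 of the Tal1 promoter regions in every library where those were called. A weaker Tal1 site at +19.3 kb was called at 3.94 in −RV replicate 2 and at 4.85 and 6.07 in +RV, and another at −3.64 kb at 3.15 and 3.45 in +RV alone.

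Nfe2, the partner of the small Maf proteins, had 3 promoter regions with folds of 2.36 to 3.99 and a stronger region at −3.09 kb, with folds of 6.16 and 6.08 in −RV and 6.44 and 7.33 in +RV. That region spans the annotated 5′ end of the gene, with its summit at −124 bp from that end. It lies outside the promoter windows used here and is counted with the regions off promoters. A region at −49.9 kb had 8.38 and 8.00 in −RV and 7.95 and 7.57 in +RV.

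For Klf1, the CACCC-box factor, the strong peak was in an exon at +1.27 kb, with 5.57 and 5.63 in −RV and 6.66 and 6.33 in +RV, and not at the start site. For Epor an intron region at +0.871 kb was called everywhere, at 6.59 and 3.61 in −RV and at 4.56 and 6.11 in +RV. For Gata1 the own region was an intron peak at −3.58 kb, upstream of the reference start and inside longer transcripts, called at 4.47 in +RV replicate 2 alone. The other region near Gata1 was the promoter of Hdac6, with folds of 9.98 to 11.5.

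Gfi1b, the repressor, had its best distal region at +19.6 kb, with 4.57 and 3.45 in −RV and 4.10 and 5.24 in +RV, and a weaker intron region at +4.90 kb in +RV alone. Zfpm1 had 8 regions in its own introns. Those at +12.2, +27.4 and +39.7 kb were called in all 4 libraries, with folds of 4.19 to 5.58. Lmo2, the bridging factor, had 3 promoter regions and a pair of intergenic regions at −12.9 and −12.1 kb in all 4 libraries, none above 5.57.

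The size of the peaks was compared between conditions at the 23619 regions called in all 4 libraries, by limma on log2 fold centred on each library's median. Of all regions 43 (0.182%) were higher and 49 (0.207%) lower in +RV at a Benjamini-Hochberg adjusted p under 0.05, against the spread of 2 technical replicates a side. None of the 33 regions near the 8 genes was called in either direction. An unadjusted p under 0.05 was found at 8 of them, beside 5069 of all 23619 regions. Their median log2 change was −0.10, beside −0.07 over all regions. Without centring these medians were 0.10 and 0.13, so a direction near 0 rests on the scaling. At the Tal1 region of +39.5 kb the log2 change was −0.10 ± 0.13 (SE, adjusted p = 0.694, limma). The widest change among the genes' own regions was at the Zfpm1 intron region of +39.7 kb, −0.48 ± 0.15 (SE, adjusted p = 0.117, limma). The Zfpm1 promoter changed by −0.25 ± 0.14 (SE, adjusted p = 0.313, limma).

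The single-cell sets give the level of each promoter on a common scale, as fragments per 1000000 nuclear fragments (CPM) per kb of promoter window. Zfpm1 was highest by far, at 29.3 (95% Poisson interval 22.1 to 38.0, 56 fragments) in −RV and 30.1 (27.5 to 32.9, 496 fragments) in +RV, above 99.6% and 99.5% of genes. In +RV the order below it was Klf1 at 6.50, Lmo2 at 5.05, Nfe2 at 3.66, Tal1 at 3.46, Gata1 at 2.86, Gfi1b at 2.83 and Epor at 1.52. Zfpm1 stood clear of Klf1. The intervals of all further neighbours in this order overlapped, and the interval of Epor, 0.983 to 2.24, held the 2.01 of the median gene. Gata1, which had no bulk promoter peak, held 6 fragments in −RV and 47 in +RV, above 58.1% and 54.1% of genes.

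The +RV over −RV ratio of the promoter level was 0.968 for the 8 genes together (95% counting interval 0.813 to 1.16, from 144 and 1199 fragments). The median gene had 1.07. Single genes ran from 0.697 for Lmo2 (0.469 to 1.07) to 1.39 for Gfi1b (0.511 to 5.33), and all 8 intervals held 1. Single genes moved with the settings. The Lmo2 ratio ran from 0.390 in barcodes of 1000 fragments or more to 1.09 in windows of 500 bp on each side, where Gfi1b had 5.58, and in the deeper barcodes Klf1 had 2.70, so no order or direction is read from them. For Klf1, whose bulk call differed between conditions, the ratio was 1.24 (0.651 to 2.67). For Epor it was 0.968 (0.296 to 5.01, from 3 and 25 fragments), so a change of several-fold was not detectable at this depth. Between the 20 Tn5 indices of a set, which are tagging reactions and not replicates, the summed level of the 8 promoters ran from 65.7 to 128 CPM in +RV and from 19.2 to 163 in −RV. Fragments that exceeded the length of nucleosomal DNA made up 31.7% of promoter fragments of the 8 genes in +RV (exact binomial interval 29.1 to 34.4) and 3.47% in −RV (1.14 to 7.92), beside 20.4% and 2.29% of all nuclear fragments. Their regions away from promoters had 28.0% (25.8 to 30.3) in +RV and 2.03% (0.556 to 5.12) in −RV. The share at promoters of all genes was not counted.

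**Figure D2:**
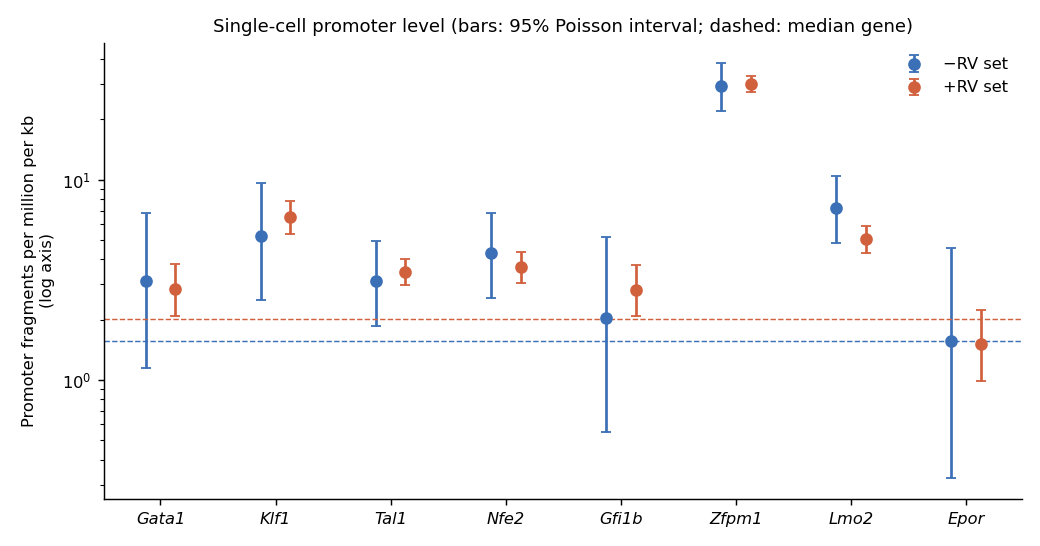
Promoter CPM per kb of window in the pooled −RV and +RV sets, on a log axis. Bars are 95% Poisson intervals and dashed lines the median gene of each set. Zfpm1 stands near 30.1 in +RV and the other genes between 1.52 and 6.50.

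**Figure D3:**
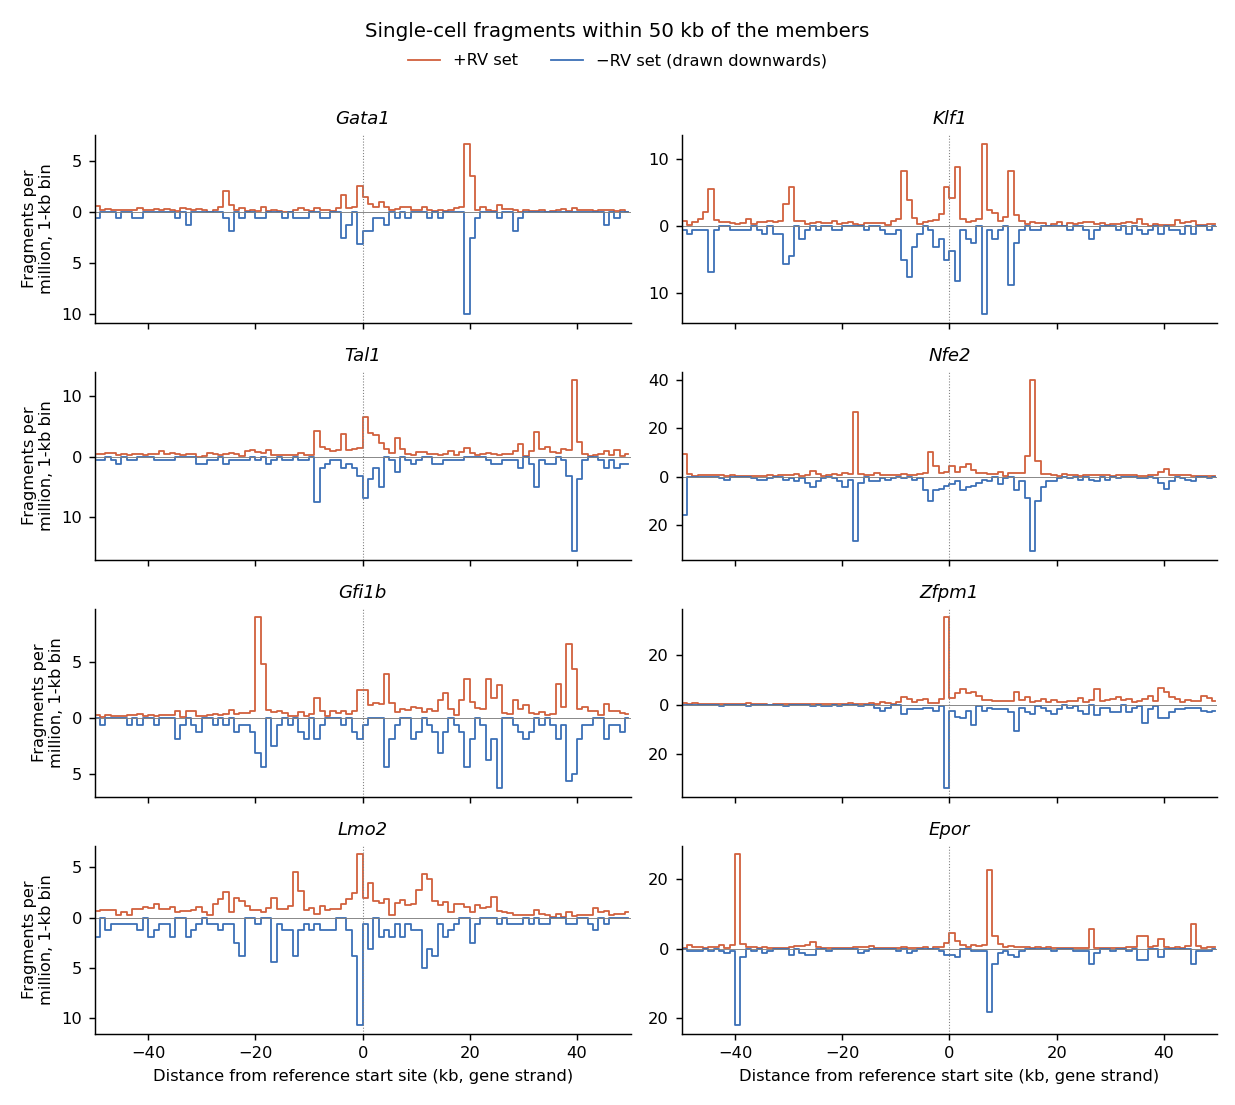
Single-cell CPM in 1-kb bins within 50 kb of each reference start site, with +RV drawn upwards and −RV downwards on axes of their own per gene. The same bins stand out in both sets, among them the Tal1 bin at +39.5 kb and the Zfpm1 start site.

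Since red cell precursors are a minority in spleen, fragments at the 8 genes were next followed in barcodes that were open at other erythroid genes. A barcode was chosen when it had fragments in the gene windows (the gene with 5000 bp added before its start and 500 bp after its end) of at least 2 of 23 loci of the 25 effector genes. None of the 8 genes took part in the choice, and the effector windows were left out of the totals. This gave 232 of 2406 barcodes in −RV (9.64%) and 1607 of 18620 in +RV (8.63%). The chosen barcodes were deeper, with medians of 705 against 579 nuclear fragments in −RV and 766 against 614 in +RV.

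Accessibility at the 8 genes was higher in these barcodes. In +RV their gene windows together held 929 CPM, against 301 in the other barcodes, a ratio of 3.08 (95% counting interval 2.90 to 3.28). In −RV the values were 815 against 327, a ratio of 2.49 (2.07 to 3.0). In +RV every gene had an interval above 1, and in −RV 6 of 8 had, Klf1 at 1.81 (0.722 to 4.02) and Gfi1b at 2.42 (0.786 to 6.36) being the exceptions. The share of all genes with such an interval was not counted for gene windows, so these counts are not read as particular to the group. When every barcode was thinned to 500 fragments the pooled ratio was 3.31 in +RV and 3.65 in −RV, with 2652 and 457 shallower barcodes left out.

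Gata1 had the highest ratio of the group in +RV, 4.97 (3.61 to 6.80, 68 fragments in chosen and 105 in other barcodes), and 5.90 (2.61 to 13.1) in −RV. Gfi1b followed in +RV at 3.98 (3.09 to 5.10) and Nfe2 at 3.83 (3.22 to 4.54). Tal1 had 3.33 (2.72 to 4.05), Klf1 3.15 (2.46 to 4.01), Epor 3.11 (2.17 to 4.40) and Lmo2 2.96 (2.50 to 3.48). Zfpm1 was lowest, at 2.67 (2.43 to 2.93) in +RV and 2.07 (1.54 to 2.75) in −RV. The intervals of Zfpm1 and Gata1 did not overlap in +RV, and those of neighbours in this order did.

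Other gene lists in the same barcodes give the background. In +RV housekeeping genes had a ratio of 1.07 (1.01 to 1.13), B cell genes 0.565 (0.510 to 0.624), T cell genes 0.531 (0.475 to 0.592), macrophage and monocyte genes 0.927 (0.828 to 1.04), megakaryocyte genes 1.1 (1.01 to 1.24), mast cell and basophil genes 1.27 (1.05 to 1.53) and stem and progenitor genes 0.927 (0.840 to 1.02). In −RV, with fewer fragments, the values were different for some lists, with stem and progenitor genes at 0.639 (0.458 to 0.870), macrophage and monocyte genes at 0.691 (0.465 to 0.995) and mast cell and basophil genes at 1.88 (1.13 to 2.99), and housekeeping genes were at 1.13 (0.960 to 1.32). In barcodes chosen the same way by other lists the 8 genes together had 0.742 (0.652 to 0.842) for B cell, 0.729 (0.624 to 0.846) for T cell, 0.830 (0.683 to 0.999) for macrophage and monocyte and 1.21 (1.01 to 1.44) for megakaryocyte genes. In −RV the megakaryocyte barcodes lay on the other side of 1, at 0.265 (0.0320 to 0.961), from 2 fragments. The −RV values for B cell, T cell and macrophage barcodes were 0.727 (0.395 to 1.23), 0.621 (0.319 to 1.09) and 0.771 (0.309 to 1.60). By gene in +RV, B cell barcodes were lowest for Nfe2 at 0.380 (0.216 to 0.622) and Tal1 at 0.387 (0.205 to 0.669), and for Lmo2 the ratio was 1.05 (0.772 to 1.39). The barcodes are parts of 1 pooled set, so these intervals describe counts and not animals.

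**Figure D4:**
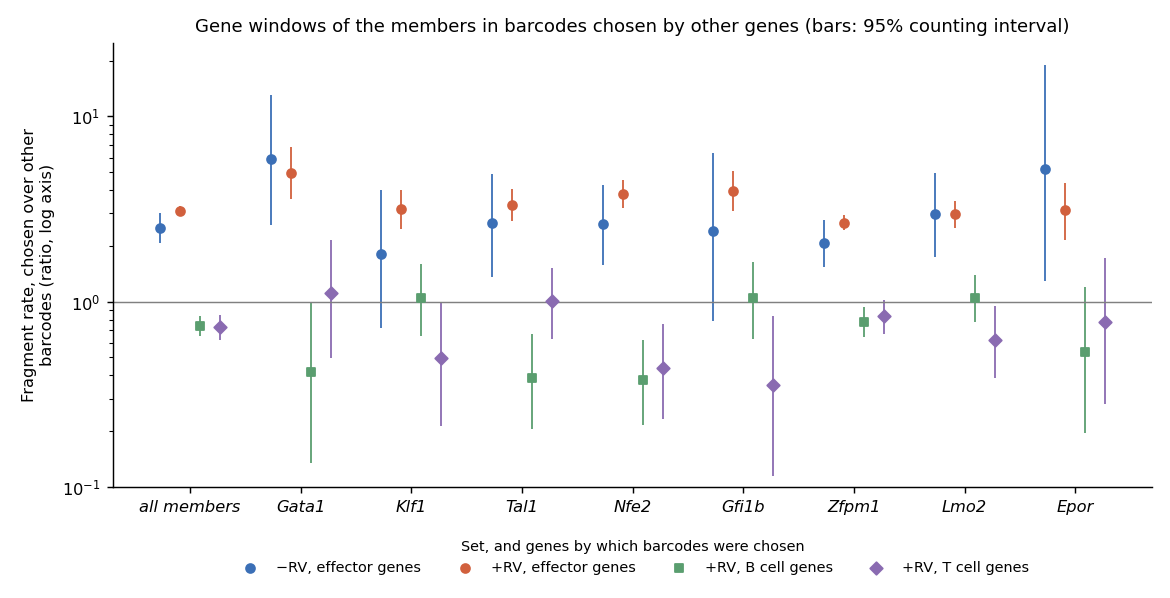
Rate of fragments in the gene windows of the members, in barcodes chosen by other genes over all other barcodes, as a ratio on a log axis with 95% counting intervals. Circles are barcodes chosen by erythroid effector genes in −RV and +RV, and squares and diamonds those chosen by B cell and T cell genes in +RV. The effector ratios lie at 2.67 to 4.97 for single genes in +RV.

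The same ratio was taken for each of the 66 bulk regions in +RV, to see where in a locus the difference lay. It was above 1 beyond its interval at 28 regions, 11 of the 13 own promoter regions, 2 of the 14 promoters of other genes and 15 of the 39 other regions. Over all 58860 regions with a fragment the share was 6.03%, beside 42.4% of the 66. Whether a region passes depends on its fragment count, and among regions with at least 50 fragments the shares were 11.7% of 14678 and 10 of 26. Over the 14086 regions called in all 4 libraries with at least 50 fragments the median ratio was 0.903, and 604 had a ratio of 2 or more.

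At Tal1 the region at +39.5 kb held 87 of its 166 fragments in chosen barcodes, a ratio of 8.45 (6.16 to 11.6), above 99.8% of those regions. In −RV it held 12 fragments in chosen and 13 in other barcodes, a ratio of 6.70 (2.79 to 15.9). In B cell and T cell barcodes of +RV its ratio was 0.529 (0.191 to 1.18) and 0.758 (0.274 to 1.69). The promoter of Pdzk1ip1, which lies between Tal1 and this site, had 5.67 (2.84 to 11.1), and the Tal1 promoter regions had 5.39 (3.13 to 9.15) and 2.79 (1.31 to 5.54). The site at +19.3 kb went the other way, with 0 fragments in chosen barcodes and 21 in the others (upper limit 1.47).

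Gfi1b at +19.6 kb had the highest ratio of the 66 regions, 13.7 (6.85 to 28.5), with 25 of 39 fragments in chosen barcodes. Its promoter had 3.65 (1.54 to 8.10) and its intron region at +4.90 kb, a peak in +RV alone, 7.22 (3.41 to 15.2). In −RV the +19.6 kb region held 1 and 5 fragments, too few to place it (0.031 to 13).

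At Zfpm1 the strong promoter differed from several intron regions. The promoter, with 67 fragments in chosen and 428 in other barcodes, had a ratio of 1.20 (0.914 to 1.56). The 3 intron regions called in all 4 libraries had 5.04 (2.84 to 8.78) at +12.2 kb, 4.73 (2.87 to 7.68) at +27.4 kb and 4.93 (2.92 to 8.19) at +39.7 kb, and none of these intervals overlapped with that of the promoter. Of the other 5 own intron regions, those at +40.8 and +42.1 kb, each called in 1 library, had 3.83 (1.42 to 9.5) and 8.95 (3.84 to 21.2). Those at +17.5, +33.1 and +48.5 kb had 0.807 (0.0912 to 3.35), 1.59 (0.539 to 3.89) and 1.83 (0.538 to 4.98), with intervals that held 1.

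Klf1 showed the reverse arrangement. Its weak start-site peak had 6.46 (3.11 to 13.3, 16 and 19 fragments), while the stronger exon region at +1.27 kb had 1.21 (0.679 to 2.02). The promoters of its neighbours Farsa, Syce2 and Dnase2a lay between 1.18 and 1.24, and that of Gcdh at 1.81 (1.16 to 2.73). That of Mast1 held 0 fragments in chosen and 9 in other barcodes (upper limit 3.89).

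The Nfe2 region at −3.09 kb had 3.45 (2.41 to 4.87) and its promoter regions 4.69 to 7.08, while the strong peak at −49.9 kb had 0.538 (0.263 to 0.988). For Lmo2 the region at −0.983 kb had 8.56 (4.86 to 15.1) and the start site 4.93 (2.57 to 9.24), against 1.58 (0.820 to 2.84) for the promoter region at +11.9 kb and 1.10 and 1.18 for the intergenic pair. The Epor intron region had 4.48 (2.48 to 7.88) and its promoter 3.54 (1.10 to 9.98). The Gata1 intron region at −3.58 kb had 6 and 7 fragments in +RV, a ratio of 6.58 (1.83 to 22.9), and 3 and 0 in −RV.

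**Figure D5:**
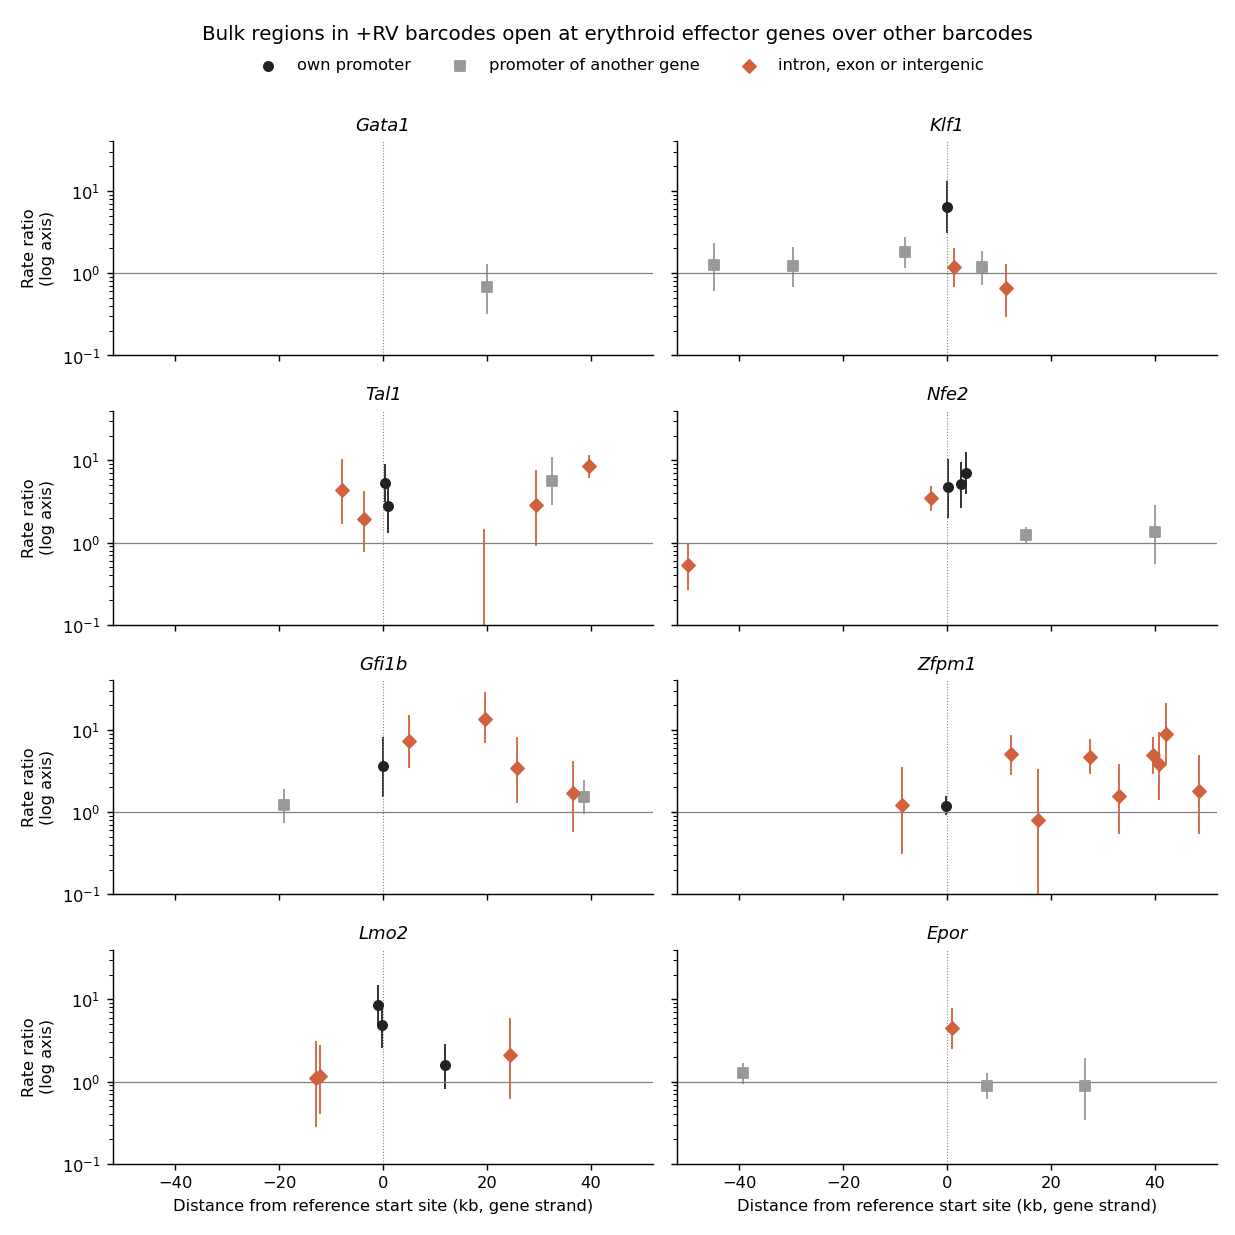
Ratio of the fragment rate in +RV barcodes chosen by erythroid effector genes over other +RV barcodes, for every bulk region with at least 20 fragments, against distance from the reference start site in kb. Lines are 95% counting intervals on a log axis, cut at 0.1. The Gfi1b region at +19.6 kb (13.7) and the Tal1 region at +39.5 kb (8.45) stand high, and promoters of other genes (grey squares) lie near 1 apart from Pdzk1ip1 (5.67) and Gcdh (1.81).

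Motifs were counted in the same 200-bp frame, here at region centres so that all regions are treated alike. GATAA was found in 15 of the 39 regions outside promoter windows (38.5%), against 21.8% of 47534 regions off promoter windows in the whole data. CCNCNCCC was in 19 (48.7%, against 25.1%), CAGNTG in 19 (48.7%, against 45.7%) and TGANTCA in 0 (against 8.01%). As CCNCNCCC also matches GC-rich strings, its count is not one of CACCC boxes alone. Around summits, GATAA was present in 17 of the 28 regions whose ratio was above 1 and in 6 of the other 38. CAGNTG was present in 16 of the 28 and 18 of the 38, and CCNCNCCC in 17 and 19. The groups differ in place, as promoters of other genes made up 2 of the 28 and 12 of the 38. GATAA was there in 0 of the 2 and 2 of the 12. Among own promoter regions it was in 5 of 11 and 0 of 2, and among the other regions in 12 of 15 and 4 of 24. Its share in all regions of the data with a ratio above 1 was not counted. These are counts of letters and were not tested. RefSeq promoter windows (GRCm38.p6) matched 6 of the 8 genes. GATAA was in 4 of the 6, CCNCNCCC in 5, CAGNTG in 3 and TGANTCA in 0. Here a gene with several windows counted once if any held the motif. Of all single promoter windows 25.4%, 49.5%, 51.4% and 7.81% held these motifs, so the units are not the same.

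Partners and related regulators of these factors were read from a fixed list of 26 genes. In bulk 19 promoters were called in −RV and 25 in +RV, with Mafg, a small Maf protein, in neither. Gata2 (folds 4.73 and 4.95), Fli1, Nfia and Zfpm2 were called in both +RV libraries and neither −RV library. Zbtb7a, Nfe2l1 and Klf3 held the most single-cell promoter fragments of the list in +RV, 592, 534 and 514, in windows of different total length. Per length, Nfe2l2 was highest, at 26.7 CPM per kb. In barcodes open at effector genes 15 of the 26 had an interval above 1 and 4 below it, with a median ratio of 1.33, beside 3.24 for the 8 genes. The share over all genes was not counted here. Sox6, a repressor of embryonic globin, had 2.54 (2.35 to 2.75) and the paralogs Gata2 and Lyl1 had 1.90 (1.27 to 2.79) and 1.70 (1.32 to 2.17). Gfi1, the lymphoid and myeloid paralog of Gfi1b, had 0.298 (0.162 to 0.507), and Fli1, a megakaryocyte and lymphoid factor, 0.490 (0.410 to 0.582).

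Of 23 genes of Epo receptor signalling 19 promoters were called in −RV and 22 in +RV, with Cbl in neither. Kit, the stem cell factor receptor (folds 9.27 and 5.59), Socs2, a feedback inhibitor, and Erfe, the erythroblast hormone that lowers hepcidin, were called in +RV alone. Pim1, Sh2b3 and Bcl2l1 held the most single-cell promoter fragments of the list in +RV, 451, 357 and 353, and per length Cbl was highest, at 13.8 CPM per kb. In effector barcodes 6 of 22 had an interval above 1 and 7 below it, again without a share over all genes. Those above included Erfe at 2.36 (1.49 to 3.64), Kit at 2.29 (1.85 to 2.81), the transferrin receptor Tfrc at 2.14 (1.70 to 2.67), Stat5a at 1.59 (1.25 to 2.01) and the survival gene Bcl2l1 at 1.59 (1.38 to 1.83). Jak2 had 1.14 (0.930 to 1.39), and Stat5b, unlike Stat5a, had 0.856 (0.702 to 1.03). Kitl had 0.495, Lyn 0.668, Cbl 0.706 and Sh2b3 0.745, with intervals below 1. The feedback inhibitors Socs1, Socs2 and Socs3 had 0.600, 0.417 and 0.599, with intervals below 1, whereas Cish of the same family had 1.21 (0.884 to 1.62) and the inhibitor Spred2 had 1.19 (1.02 to 1.39).

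Barcodes were also chosen by the 8 genes themselves, with fragments in the gene windows of at least 2 of them, which gave 643 barcodes in +RV (3.45%) and 82 in −RV (3.41%). Of 5570 genes over 200 kb from any member or effector gene and with at least 30 fragments there, the 10 most alike were Slc30a10 at 5.53 (3.87 to 7.75), Dnajb3 at 4.63, Acnat1 at 4.40, Fhdc1 at 4.37, Aqp1 at 4.37, Tom1l1 at 4.11, Smco2 at 4.10, Ackr1 at 4.01, Rnf212 at 4.0 and Nqo1 at 3.99, beside a median of 1.23. The minimum of 30 fragments applied to the chosen barcodes, whose rate is the numerator of the ratio. It therefore favours high ratios and can lift the median. The ranking rests on +RV, and these ratios are a description. In −RV Fhdc1 had 3.62 (1.79 to 6.72), Tom1l1 2.94 (1.35 to 5.71), Rnf212 5.92 (1.97 to 15.1) and Nqo1 3.74 (1.13 to 9.78), while the intervals of the other 6 held 1.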

How the data were processed

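Nuclei of FFPE spleen were profiled by bulk and single-cell ATAC-Seq with and without reverse crosslinking, in technical replicates. The authors deposited 1 MACS2-type peak list per bulk library on mm10, with a score, a fold as ratio over local background, and −log10 p and −log10 q for each peak. The single-cell values deposited are of an other kind, fragment positions with their barcodes, pooled in 1 set per condition. Its condition follows from an abbreviation shared with the bulk lists. Barcodes had been selected by the authors on fragments and on a fraction at start sites. The study's methods name BWA, samtools, MACS2 and blacklist removal, whereas the notes of the submitters list SEACR 1.3, Picard 1.119, SAMtools 1.15 and Bowtie2 2.4 and give no roles.

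Start sites came from GENCODE vM21 (basic). A peak belonged to a gene when its summit lay within 50 kb of a start site, and peaks sharing 1 bp were merged. Folds were fitted with limma 3.58.1 in R 4.3.3, which was tested on simulated data. Fragments were counted by midpoint. Ratio intervals are exact conditional binomial and cover counting error. The gene names, lists, motifs and regions shown were chosen with earlier results of these data known. Regions planned for naming were the promoter regions and the 3 other regions with the highest mean fold per gene. Not all of these are described, and the choice among them was made with their values known. From the lists of partners and of Epo signalling the text names the 3 genes with the highest promoter CPM in +RV and those called in 1 condition alone, and from the ranking of similar genes the first 10. Further regions and genes named were chosen after their values were seen. Alternatives were stricter, merged or equal-sized peak lists, other windows, leaving out a library, the replicate number as a block, other scalings, depth, fragment length, thinning, and other rules for choosing barcodes.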

Additional observations from a re-analysis of the deposited data

How the results depend on the processing

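The call of Klf1 in +RV alone was 0 genes at a −log10 q of 5 or more and 0 with the same number of peaks per library, and leaving out single libraries gave 1 to 2, with Epor added without −RV replicate 1. The ratio of peaks within 50 kb stayed between 1.01 and 1.35 in every alternative. Regions higher and lower in +RV over the whole data numbered 1105 and 32 without centring, 23 and 3 after quantile normalization, 66 and 99 at a −log10 q of 5 or more, and from 1 to 557 and from 6 to 950 without single libraries. Replicate numbers do not pair the libraries (r = −0.0149 between deviations of same-numbered libraries), and with the replicate number as a block the counts were 268 and 462, with no region near the 8 genes called. Of the 33 regions near the 8 genes, 1 was higher without centring, the Cbx5 promoter (log2 0.60, adjusted p = 0.0277, limma). Leaving out single libraries gave 0 to 1 higher and 0 to 1 lower; without −RV replicate 1 these were the same Cbx5 promoter and the Hdac6 promoter, neither a region of the 8 genes themselves. The cause was not tested. The pooled single-cell promoter ratio was 0.782 on fragments of 50 to 100 bp. With barcodes of 1000 fragments or more, the −RV set had 0 fragments at the promoters of Gfi1b and Epor, so no ratio was given. The pooled ratio in effector barcodes of +RV was 2.39 with 1 or more loci, 3.31 after thinning and 2.85 in promoter windows, and that of −RV was 3.65 after thinning. It exceeded 1 for all 8 genes in +RV under all 5 alternatives, down to 1.18 for Zfpm1 in promoter windows. In −RV the pooled ratio ran from 2.31 to 3.65. There Gfi1b exceeded 1 in 4 of the 5 alternatives, with a lowest value of 0, and the other genes in all 5. Counts limit the −RV values, where single regions held as few as 0 fragments.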

Other observations

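In the single-cell sets the 1-kb bin 17.5 kb upstream of the Nfe2 reference start, at the start of Copz1, held 26.4 CPM in −RV and 26.6 in +RV, among the highest levels within 50 kb of the 8 genes. No peak is listed there in any of the 4 bulk lists as held here, and whether these contain every peak that was called is not known. The 1-kb bin just upstream of the Gata1 start held 3.14 and 2.55 CPM, also with no bulk peak.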
